A study of Mus musculus with 8 samples.

Results

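In the liver of EomesTG mice, 309 CD8 T cells carried transcripts of Prss2, Coch, Lmo1 and Penk above those of the other gene sets that mark cells of this organ. They were 309 of the 4521 cells kept from that library (6.83%, 95% exact binomial interval 6.12 to 7.61) and of 18732 cells in all 4 gene expression libraries. The rule summed the unique molecular identifiers (UMIs, 1 for each captured RNA molecule) of 3 sets of 4 genes in each cell. Set B was Prss2, Coch, Lmo1 and Penk, set A was Cd200r2, Glp1r, Cela1 and Ccdc80, and set C was Slc16a11, Calcb, Mrc2 and Clec10a. A member had at least 2 UMIs of set B, more than of set A and more than of set C. Members were described beside 2532 reference cells, the other cells of the same liver with at least 1 UMI of Pdcd1. The set genes had been read from this library, so levels of members beside reference cells are a description, with no test.

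The libraries were single-cell 5′ RNA and T cell receptor libraries of sorted CD8 T cells from spleen and liver. The strains were wild-type C57BL/6 mice and EomesTG mice on that background, homozygous for a transgene of Eomes, which encodes a T-box factor directing effector and memory T cells. Cells of 3 mice were pooled for each strain, so each group was 1 library, spleen and liver of a strain shared their mice, and no cell can be assigned to a mouse. The transgene's promoter, the age of the mice and any treatment are not stated in the labels. Eomes UMIs from transgene and endogenous copies cannot be told apart. With 1 library in each group no comparison between strains or organs has a replicate check. All intervals are 95% exact intervals and cover counting error only.

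A CD8 T cell builds its receptor by joining gene segments at random, so cells with the same joined sequence descend from 1 ancestor and form a clone. PD-1, encoded by Pdcd1, is an inhibitory receptor that T cells display after antigen stimulation and that is often present on T cells residing in tissues. The transcription factor Maf drives Il10 in several kinds of T cells, and receptors of natural killer (NK) cells are displayed by many effector CD8 T cells. The set B genes have no common pathway. Prss2 encodes a trypsinogen, a digestive protease precursor of the pancreas. Coch encodes cochlin, an extracellular protein of the inner ear and of lymph node stroma. Lmo1 encodes a LIM-domain transcriptional cofactor known as an oncogene of T cell leukaemia. Penk encodes the precursor of enkephalin opioid peptides.

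Most members were 1 clone. Of the 261 members with a productive receptor beta chain (TRB), 209 carried the same TRB (80.1%, 74.7 to 84.7). Its junction is shown with the clone's alpha chains (TRA) and with the beta junctions of the other 3 clones among the 4 most numerous in this liver, because the receptor is the feature that the rule did not use. Lower case marks bases matching the germline V or J segment, and capitals mark bases matching neither.
Members' clone, TRBV12-1 and TRBJ2-5: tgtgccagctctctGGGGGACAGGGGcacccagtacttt
Members' clone, TRAV13-1 and TRAJ31: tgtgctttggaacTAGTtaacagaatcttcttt
Members' clone, TRAV9-4 and TRAJ35: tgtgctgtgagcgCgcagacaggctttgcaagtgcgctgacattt
Clone of rank 1, TRBV15 and TRBJ2-7: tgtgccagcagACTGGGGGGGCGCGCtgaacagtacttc
Clone of rank 2, TRBV3 and TRBJ1-5: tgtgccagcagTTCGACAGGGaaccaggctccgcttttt
Clone of rank 4, TRBV15 and TRBJ2-7: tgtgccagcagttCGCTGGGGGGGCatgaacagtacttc
All 4 beta junctions were 39 bases long. The beta junction of the members' clone held 12 bases matching neither segment, its TRAV13-1 chain 4 and its TRAV9-4 chain 1.

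The members' clone held 325 liver cells and ranked 3 by size, at 8.41% of the 3866 cells with a TRB. Of the 325 cells, 209 were members (64.3%, 58.8 to 69.5). Both alpha chains were read in 147 of its cells, 1 alpha chain in 161 and none in 17, and no cell carried a further productive TRB. The TRAV13-1 chain was read in 279 cells and the TRAV9-4 chain in 176. The authors' own clonotypes, which need the same set of chains, divided the clone into 4, the most numerous of 147 cells. Among the 48 members without a TRB, 18 carried an alpha chain of the clone, 2 another alpha chain and 28 none. The remaining 52 members with a TRB were spread over 33 clones, of which 27 had 1 member each. Another 12 of these members belonged to the clone of rank 4. Among reference cells with a TRB, 94 of 2208 (4.26%, 3.45 to 5.18) belonged to the members' clone. Those 2208 cells formed 243 clones, and the most numerous held 482 of them (21.8%).

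**Figure D1:**
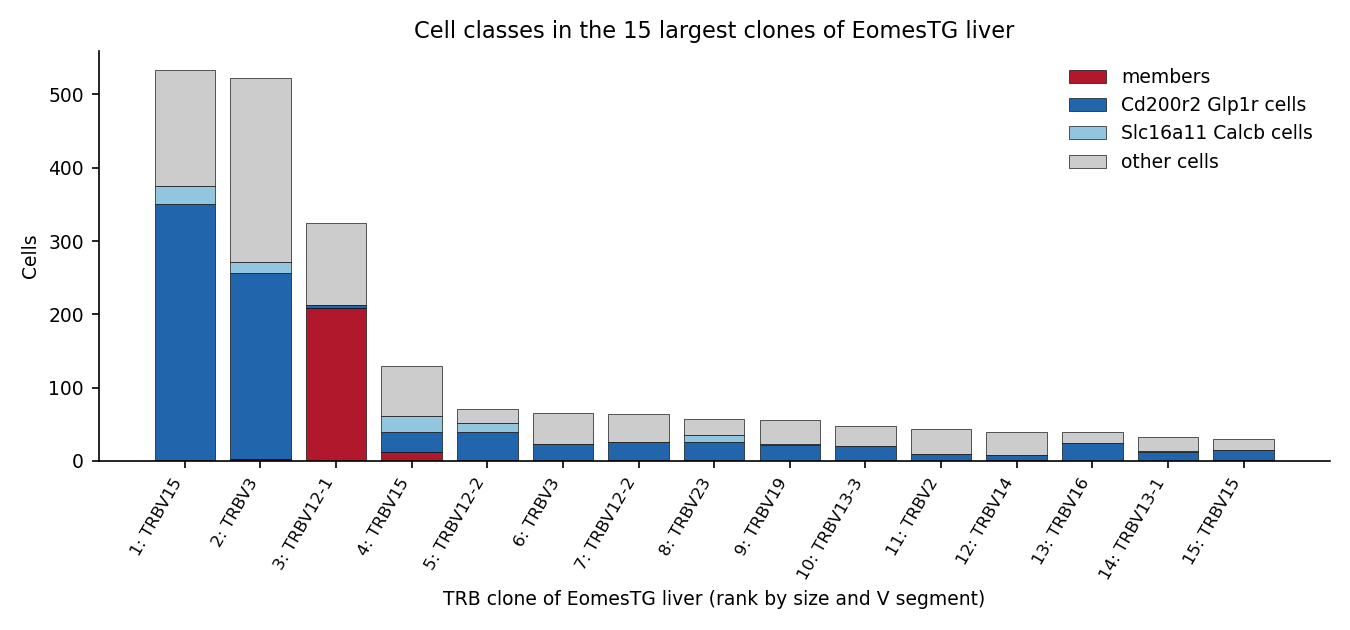
Number of cells (y axis) in each of the 15 most numerous clones of EomesTG liver, ordered by size and named by rank and V segment, with stacked bars for members, cells marked by set A (Cd200r2 Glp1r cells), cells marked by set C (Slc16a11 Calcb cells) and other cells. The clone of rank 3 holds 209 of its 325 cells as members, and each other clone holds at most 12.

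Prss2 was the set B gene of most members. Its level is given as counts per 1000000 (CPM, the UMIs of a gene divided by all UMIs of a class of cells and multiplied by 1000000). Prss2 lies on chromosome 6 at 41521787 to 41525079, forward strand, of mouse build GRCm38 and is ENSMUSG00000057163. Prss2 UMIs were present in 251 of 309 members (81.2%), with up to 15 in a cell, and the level was 752 CPM (709 to 798). Reference cells had Prss2 in 33 of 2532 cells (1.30%) and a level of 3.07 CPM (2.14 to 4.27). Cells that set A marks by the same rule had 0.887 CPM, and 0 of 119 cells marked by set C had a UMI. The median depth was 3953 UMIs in members, 3754 in reference cells, 3876 in set A cells and 6001 in set C cells. With each cell thinned to 2000 UMIs, which left out 14 members and 286 reference cells, Prss2 was present in 72.9% of members and 0.712% of reference cells.

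The other set B genes were present in fewer members. Coch (chromosome 12, 51593341 to 51605771, forward strand) was present in 114 members (36.9%) and 109 reference cells (4.30%), at 153 CPM (134 to 174) and 10.6 CPM. Lmo1 (chromosome 7, 109138572 to 109175207, reverse strand) was present in 63 members (20.4%) and at 62.3 CPM, beside 7.29 CPM in reference cells. Penk (chromosome 4, 4133531 to 4138819, reverse strand) was present in 45 members (14.6%), with up to 35 UMIs in a cell. Its level was 135 CPM in members and 1.58 CPM in reference cells. Thinned to 2000 UMIs, the shares in members and reference cells were 21.7% and 1.78% for Coch, 11.9% and 1.69% for Lmo1 and 8.47% and 0.401% for Penk. Lmo1 overlaps an annotated antisense gene, and the sources used here do not say whether counting used strand.

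Members differed in how many set B genes they carried. A single set B gene was present in 176 members, 2 in 102, 3 in 31 and all 4 in 0. Prss2 alone was present in 132 members, Prss2 with Coch in 54, Prss2 with Lmo1 in 21, Coch alone in 21 and Prss2 with Coch and Lmo1 in 18. The summed UMIs of set B had a lowest value of 2, a median of 4 and a highest value of 35 in a member. At the threshold, 69 members had exactly 2 UMIs of set B and 262 cells outside had exactly 1. The members' clone made up 51.7% of cells with a TRB at 2 UMIs, 88.6% at 3 or more, 18.6% at 1 and 2.05% of the 3929 cells with none. A further 21 cells had 2 or more UMIs of set B but not more than of set A or set C.

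**Figure D2:**
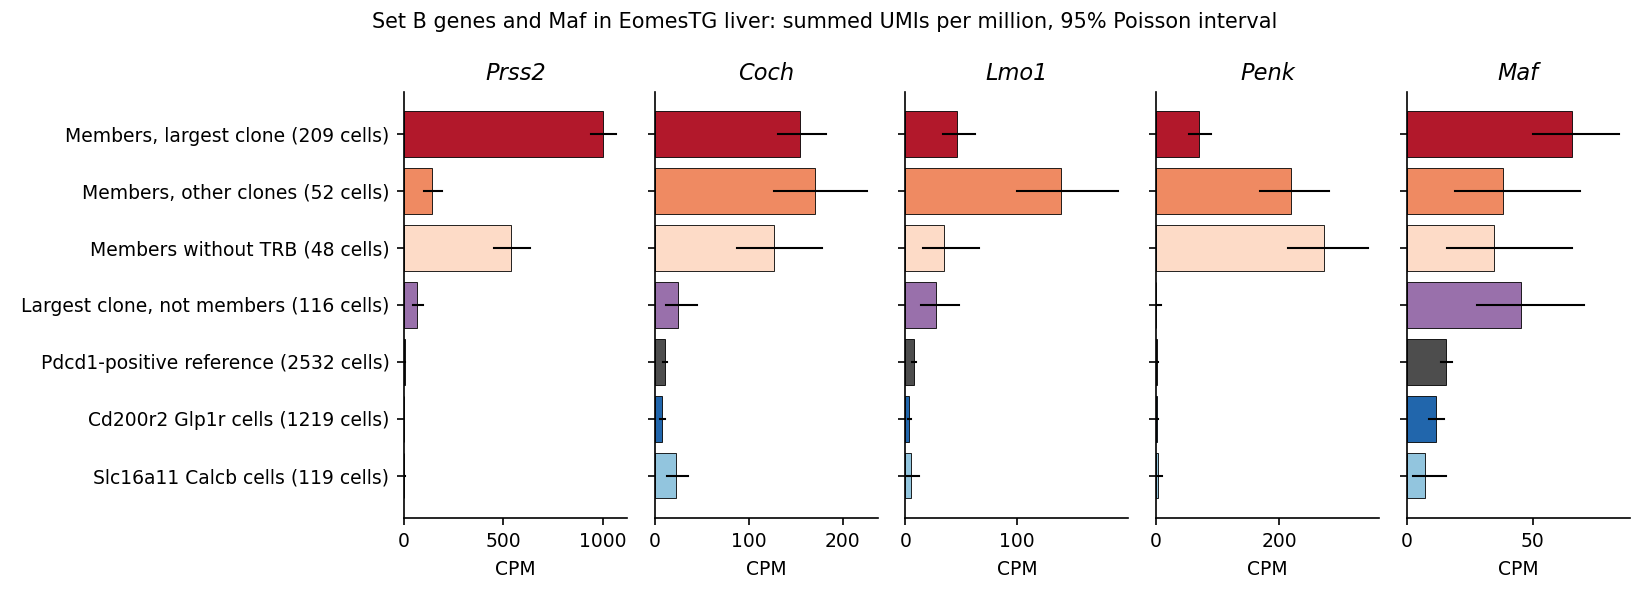
Levels of Prss2, Coch, Lmo1, Penk and Maf in CPM, each on its own axis from 0, in members of the largest clone, of other clones and without a TRB, in the remaining cells of that clone, in reference cells and in cells marked by set A or set C; lines are exact 95% Poisson intervals. Prss2 is highest in members of the clone, at 1001 CPM, and Lmo1 in members of other clones, at 139 CPM. Set B genes chose the members, so their levels in members are set partly by the rule.

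In the clone, cells with other set B genes had Prss2 more often than cells without them. Set B was read from this library and the clone was picked through its members, so the shares below are a description. For each gene in turn, cells were chosen by at least 2 UMIs of the other 3 set B genes, more than of set A and of set C. Cells with none of the other 3 genes were taken whatever their UMIs of sets A and C. In the clone, 50 of 57 such cells had Prss2 (87.7%, 76.3 to 94.9), beside 127 of 196 cells with none of the other 3 genes (64.8%, 57.7 to 71.5). In other clones, 0 of 41 such cells had Prss2, beside 15 of 3306 (0.454%); the interval for the 41 reached 8.60%. With fewer UMIs of the other genes, 2 members of other clones had Prss2 with Lmo1. For Coch the shares in the clone were 66 of 195 (33.8%) and 12 of 81 (14.8%), and for Penk 20 of 205 (9.76%) and 1 of 70 (1.43%). For Lmo1 they were 32 of 206 (15.5%) and 11 of 80 (13.8%), with overlapping intervals of 10.9 to 21.2 and 7.07 to 23.3. Cells of the clone with the other genes were deeper in each case, with a median of 3951 beside 3665 UMIs for Prss2. The gap was wider for Coch (3980 beside 3285), Lmo1 (3952 beside 3370) and Penk (3937 beside 3345). These shares were of cells not thinned.

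Set B genes chose the members, so their levels in members of the clone and members of other clones are set partly by the rule. As a description, summed levels of Prss2, Lmo1 and Penk differed between these members, and Coch levels did not separate them. Prss2 was 1001 CPM in the 209 members of the clone, with 202 of them positive (96.7%), and 139 CPM in the 52 members of other clones, with 11 positive. The 116 cells of the clone that were not members still had Prss2 in 26 cells (22.4%), at 66.0 CPM. Coch was 155 CPM (131 to 182) in members of the clone and 171 CPM (126 to 226) in members of other clones, present in 38.3% and 38.5% of cells. Lmo1 was 46.3 and 139 CPM, and Penk was 70.0 and 220 CPM, in the same order. Penk was present in 11.5% and 21.2% of cells, so its levels came from a minority of them. Thinned to 2000 UMIs, the shares with Penk were 7.92% (4.60 to 12.5) and 11.8% (4.44 to 23.9), which overlap. Those with Lmo1 were 8.91% (5.37 to 13.7) and 21.6% (11.3 to 35.3), which also overlap. The members of other clones therefore met the rule mostly through Coch, Lmo1 or Penk, and 42 of these 52 carried 1 set B gene.

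Prss2 marked 1 clone among the 15 most numerous of this liver. It was present in 70.2% of the members' clone and in 0 to 2.50% of the cells of the other 14. Coch, by contrast, was most frequent in the clone of rank 4, in 51 of 129 cells (39.5%), and present in 27.7% of the members' clone. Ppic, a cyclophilin, was present in 32.3% of the members' clone and at most 17.0% of another. Lim2, known as a lens membrane protein, was present in 50.8% and at most 34.4%. Ier3, an immediate early gene of the stress response, was as frequent in the clone of rank 4, at 34.9%, as in the members' clone, at 34.8%. Epha3, an ephrin receptor, was more frequent in the clone of rank 8, in 40 of 57 cells (70.2%), than in the members' clone, at 33.8%. Klrd1, which encodes the NK receptor CD94, was present in 18.5% of the members' clone and in 45.3 to 98.2% of the other 14. The CD8 beta chain gene Cd8b1 was present in 59.4%, within the range of 36.7 to 98.4% of the others.

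**Figure D3:**
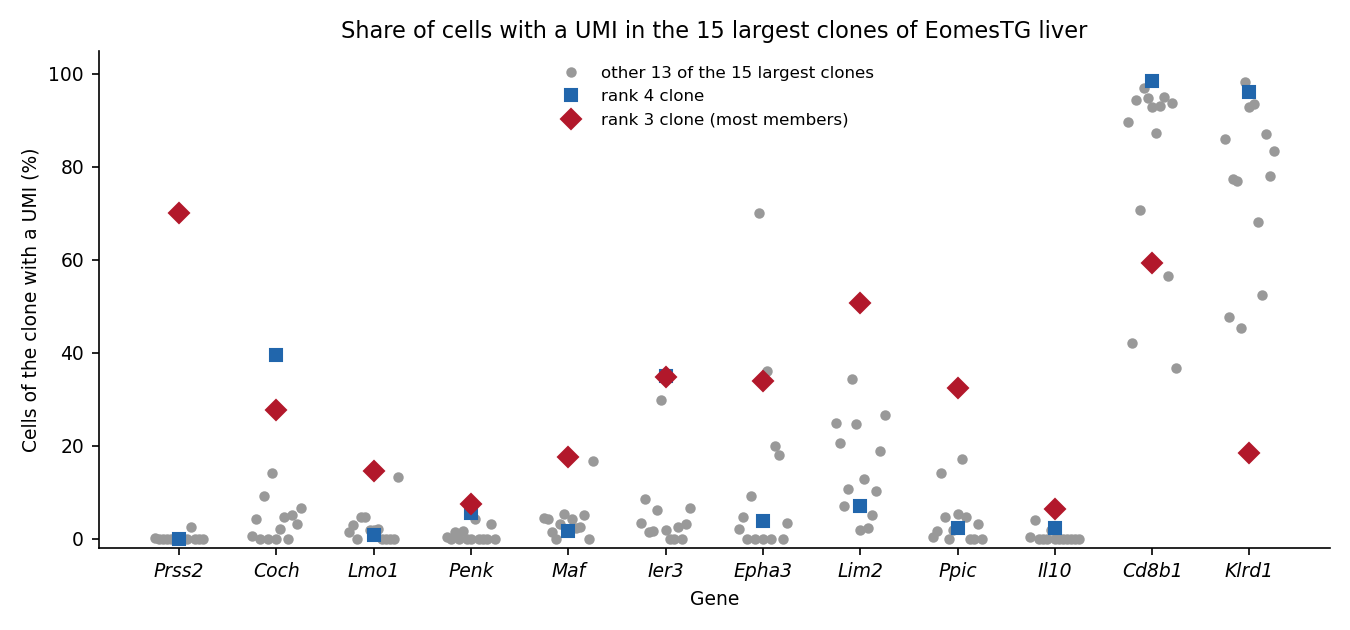
Percentage of cells with at least 1 UMI of each gene (y axis) in the 15 most numerous clones of EomesTG liver: red diamonds for the members' clone (rank 3), blue squares for the clone of rank 4 and grey points for the other 13. For Prss2 the members' clone stands at 70.2% and the others at 0 to 2.50%, and for Klrd1 it stands below all others at 18.5%.

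Prss2 lies inside the T cell receptor beta locus, in the trypsinogen cluster between Trbv30 (41281376 to 41281990) and the first D segment. Trbd1 begins at 41533201 on chromosome 6, 8122 bases after the end of Prss2. The other trypsinogen and activating protease genes listed, Prss1, Prss3, Try4, Try5, Try10, Gm5771, Gm10334 and Tmprss15, had 0 UMIs in members and in reference cells. Reads of trypsinogen genes could be divided between near-identical copies by the authors' counting, so the assignment to Prss2 is uncertain in that respect. All 11 listed markers of pancreatic acinar cells, which make trypsinogen in quantity, were at 0 in members and reference cells.

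The labelled cell type was checked on its defining genes. All 6 listed CD8 T cell genes were present in members, at a summed 7382 CPM beside 8575 CPM in reference cells. The CD4 T cell list was 253 CPM in members and 179 in reference cells, with Cd4, Cd40lg and Foxp3 at 0 in members and 365 of its 374 UMIs from Ctla4. The gamma delta T cell list was 377 and 308 CPM, with Trdc, Trdv4 and Sox13 at 0 in members. The plasma cell list was 117 and 80.1 CPM, with Mzb1 at 0 in members. The part of these lists in the results was not tested. Of the 9 listed macrophage and monocyte genes 8 were at 0 in members, and Cd68 had 26 UMIs, 17.6 CPM beside 8.34 CPM for the list in reference cells. Of the 9 hepatocyte genes 8 were at 0, and stellate, erythroid and platelet genes were all at 0. The NK cell list had 30 UMIs in members (20.3 CPM, with Ncr1 and Klra8 at 0) and 164 CPM in reference cells.

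Genes that no set contained were then compared between members and reference cells, again as a description. A gene counted as higher or lower where the ratio of levels was at least 1.5-fold and its interval lay on that side of 1, among genes with at least 50 UMIs over both classes. Of 9374 such genes, 2.18% were higher and 5.88% lower in members, and the median log2 ratio was -0.09. Members had higher Maf (chromosome 8, 115682942 to 115707794, reverse strand), at 54.9 CPM in members, where 57 of 309 cells had a UMI (18.4%), and 15.6 CPM in reference cells (5.21% of cells). The log2 ratio of Maf was 1.81 (1.42 to 2.20). Il10, an anti-inflammatory cytokine gene, was 19.0 and 4.56 CPM, a log2 ratio of 2.06 (1.34 to 2.75). Areg, which encodes the growth factor amphiregulin, was 62.3 and 17.8 CPM, a log2 ratio of 1.81. Tnfsf4, the gene of OX40 ligand, was 19.0 and 4.21 CPM, a log2 ratio of 2.17.

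The genes with the most separated intervals included several that are not typical of T cells. Ppic was 64.4 CPM in members and 9.04 in reference cells, a log2 ratio of 2.83 (2.41 to 3.25). Ier3 was 259 and 66.5 CPM, a ratio of 1.96 (1.78 to 2.14). Epha3 was 98.2 and 26.5 CPM, a ratio of 1.89 (1.59 to 2.18). Lim2 was 214 and 78.1 CPM, and S100a4, a calcium-binding protein of motile and effector cells, was 160 and 56.4 CPM. The remaining genes named by the rule were Fam84a, with a log2 ratio of 3.17, Ttn (titin) with 2.69, Upk1a with 2.32, Plxdc1 with 1.89, Wdr95 with 1.71 and the histone gene Hist2h2bb with 1.68. Hist2h2bb no longer counted as higher with cells thinned to 2000 UMIs. Without the members' clone the log2 ratio was 1.42 for Ppic, 0.81 for Ier3, 0.79 for Epha3, 0.78 for Lim2, 1.33 for Maf and 3.30 for Tnfsf4, and Areg (0.33) no longer counted as higher. With each clone weighted equally, 34 clones of members beside 243 of reference cells, the ratios of Fam84a, Ppic, Upk1a, Areg, Il10 and S100a4 lay below 0. Of the single genes checked in this way, higher and lower ones together, 14 moved without turning and 5 stayed the same. Of the genes named as higher, Maf, Ttn, S100a4, Hist2h2bb, Wdr95, Epha3 and Plxdc1 overlap other annotated genes. Several genes named elsewhere also do, among them Itga1 and Cx3cr1, which overlap protein-coding genes on the same strand.

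The genes named on the lower side included 3 of lectin-like NK receptors, a lymph node homing receptor and an integrin of resident cells. Klrd1 was 224 CPM in members and 618 in reference cells, a log2 ratio of -1.47 (-1.63 to -1.31), and Klre1, another lectin-like NK receptor gene, was 96.9 and 358 CPM, a log2 ratio of -1.88. Without the members' clone Klrd1 did not count as lower (log2 ratio -0.38) and Klre1 was at -0.70, and with each clone weighted equally the ratio of Klre1 was 0.11. Ccr7, the lymph node homing receptor, had 4 UMIs in members and 220 in reference cells, a log2 ratio of -2.83 (-4.72 to -1.46). Itga1, the collagen-binding integrin CD49a of tissue-resident cells, had 5 and 234 UMIs, a log2 ratio of -2.60. Filip1, Arap3 and Kctd12 had 1 UMI each in members and 173, 149 and 125 in reference cells. Their log2 ratios were -4.49 (-9.80 to -1.99), -4.27 and -4.02. Rcn3 and Klri2 had 2 UMIs each in members, with log2 ratios of -3.34 and -3.25, and Gcsam had 4, with -2.53. Pdzd2 and Mei1 had 0 UMIs in members and were at least 3.45-fold and 3.02-fold lower, with 3 counts set for members.

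Pdcd1 itself, used to choose the reference, was 575 CPM in members and 755 in reference cells, and 258 of the 309 members had a UMI of it. Eomes was 265 and 205 CPM, a log2 ratio of 0.37 (0.21 to 0.52), below the 1.5-fold limit. Tox, a transcription factor of chronically stimulated T cells, was 535 and 524 CPM, a log2 ratio of 0.03. Tbx21, the gene of T-bet, was 81.3 and 84.3 CPM (log2 ratio -0.05), and Cxcr6, a homing receptor of liver T cells, was 440 and 492 CPM (-0.16). None of Eomes, Tox, Tbx21 and Cxcr6 separated members from reference cells by 1.5-fold. The ratio of Pdcd1 is set partly by the choice of the reference.

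**Figure D4:**
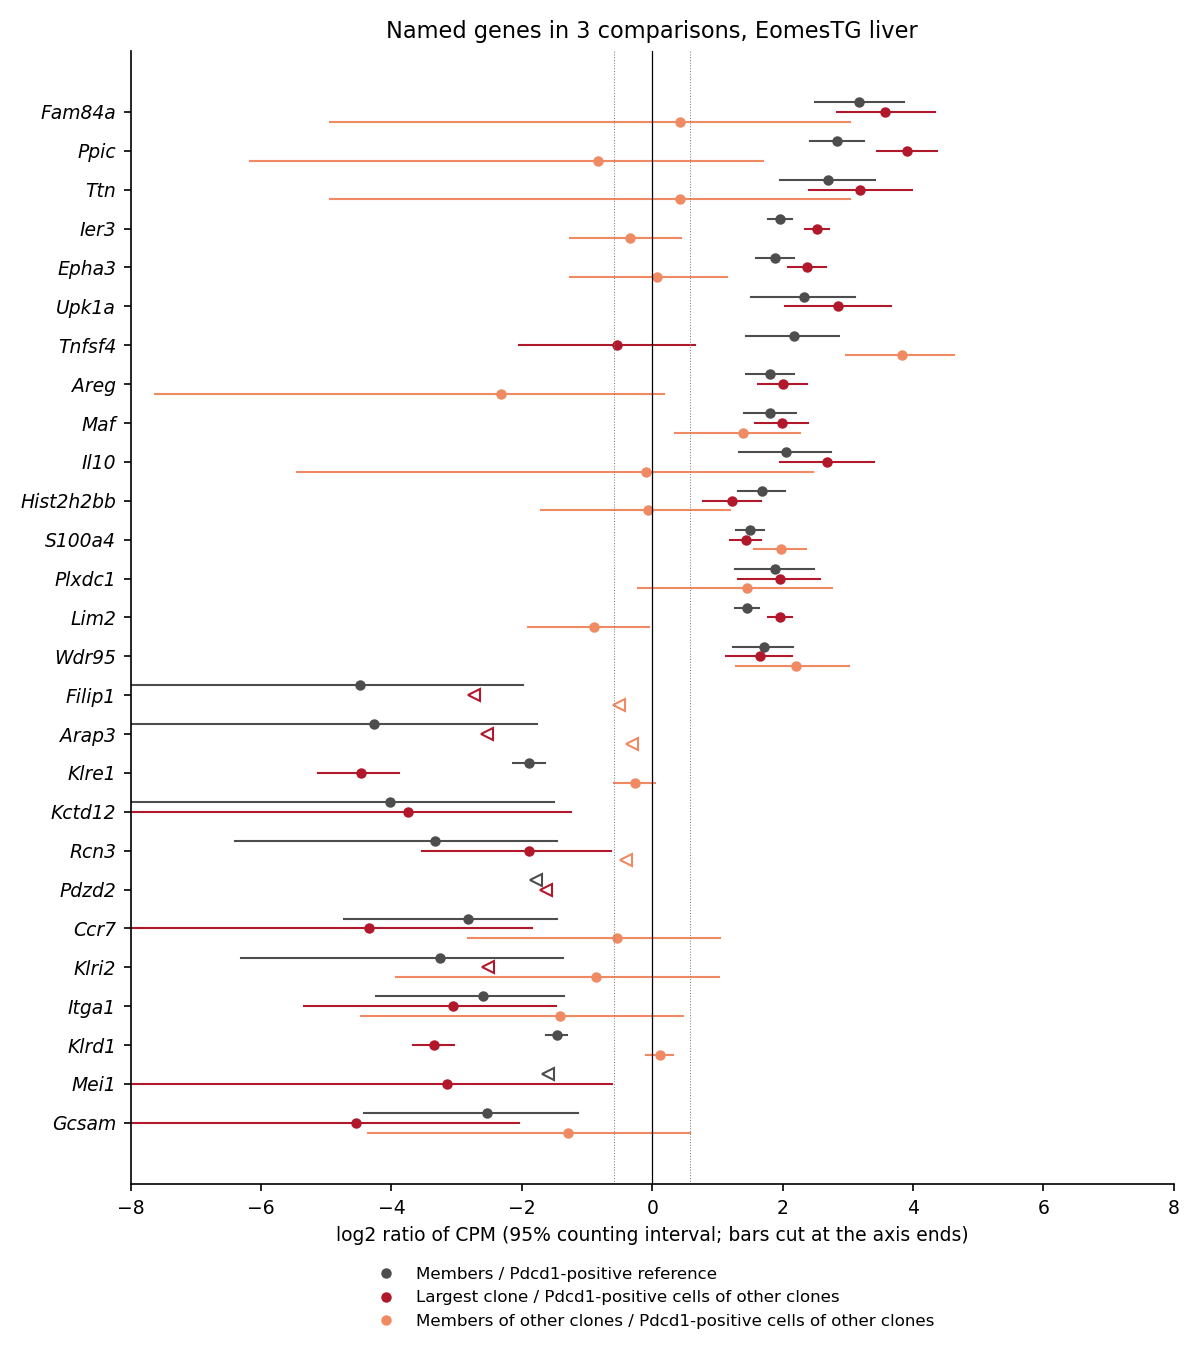
Log2 ratio of CPM (x axis) for the named genes in 3 comparisons: members over reference cells (grey), the members' clone over Pdcd1-positive cells of other clones (red) and members of other clones over the latter (orange). Lines are 95% intervals cut at the axis ends, hollow triangles are bounds for genes with 0 UMIs in the first class, bounds at or below 1-fold are not drawn, and dotted lines mark 1.5-fold; Klrd1 lies at -1.47, -3.35 and 0.11 in the 3 comparisons.

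Gene lists described the members by function, each count to be read beside the 2.18% and 5.88% of all genes. Of 13 measured NK receptor and adaptor genes 0 were higher and 11 lower, and their median log2 ratio was -1.47. Klrk1, the gene of NKG2D, had a ratio of -1.41. The signalling adaptor genes Fcer1g and Tyrobp were 10.8 and 6.78 CPM in members and 83.2 and 53.8 in reference cells. Without the members' clone the median of the list was -0.70. Of 14 naive and stem-like genes 0 were higher and 6 lower, among them the transcription factor genes Tcf7 (-0.83), Lef1 (-0.82) and Myb (-2.75) and the interleukin-7 receptor gene Il7r (-0.85). Their median was -0.48, and -0.10 without the members' clone. In the 52 members of other clones alone the list had a median of 0.70 beside Pdcd1-positive cells of other clones, with 4 of 12 genes higher and 0 lower. Only 37 of these 52 had a Pdcd1 UMI, so the 2 classes were not matched for it. Of 12 residency genes 0 were higher and 3 lower, namely Itga1, Gpr55 (0 UMIs in members and at least 2.55-fold lower) and Ahr, and the median was -0.35.

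Of 15 genes of the Maf and Il10 programme, 4 were higher and 1 lower, with a median of 0.27. They were Maf, Il10, the transcription factor gene Irf4 (0.87) and the costimulatory receptor gene Icos (0.81), and Ahr was lower (-0.82). This list was written with the markers of the members, Maf among them, already known, so its count is not independent of them. Of 21 transcription factor genes of exhausted or resident T cells, 4 were higher, Tox2 (0.66), Irf4, Maf and Ikzf2 (0.93), and Zeb2 (-0.73) and Ahr were lower. Of 10 inhibitory receptor and ectoenzyme genes 0 were higher and 1 lower, Cd200r1 at 50.8 and 140 CPM. Lag3 (-0.07), Tigit (-0.04), Havcr2 (0.56) and Ctla4 (0.53) did not count as either.

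Of 13 cytotoxic genes, the fractalkine receptor gene Cx3cr1 was higher (1.57), and granzyme C (Gzmc, -3.59) and Tnfsf10 (-0.71) were lower. Of 12 chemokine and cytokine genes, Il10 and Areg were higher and Ccl3 (-0.62), Ccl4 (-0.62) and Tnf (-1.63) lower. Of 14 chemokine receptor and integrin genes, Itgax (1.69) and Cx3cr1 were higher and 3 were lower. Of 16 cytokine receptor genes, Il15ra (0.70) was higher and Il7r and Il18r1 (-1.22) lower. Of 15 feedback genes of receptor signalling, 0 were higher and Egr1 (-0.72), Cd5 (-0.60) and Cd6 (-0.83) were lower. Of 14 immediate early genes 1 was higher, Ier3, and 5 were lower, among them Jun (-0.76) and Atf3 (-1.14).

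T cell identity genes were present but some were lower. Of 15 measured, 0 were higher and 4 lower, with a median of -0.08. Cd8b1 was 434 CPM in members and 752 in reference cells, the alpha chain constant gene Trac was 378 and 626 CPM, and the beta chain constant gene Trbc1 was 51.5 and 244 CPM. Trbc1 was present in 0% of members of the clone, whose TRB has a TRBJ2 segment, and in 44.2% of members of other clones. The other beta chain constant gene, Trbc2, was 723 CPM in members and 683 in reference cells. Of 14 cell cycle genes Tyms (0.59) was higher, and of 11 interferon response genes Mx1 (1.23). Of 15 apoptosis and survival genes 0 were higher, and Bcl2l11 (-1.25), the gene of BIM, and Fas (-0.73) were lower. None of 11 heat shock genes and none of 13 glycolysis genes counted as higher or lower.

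The partners of the set B genes did not accompany them. In the opioid list Pomc was 5.42 and 5.09 CPM and the convertase gene Furin 10.8 and 12.9 CPM, neither higher nor lower. Pdyn, Pnoc, the receptor genes Oprd1 and Oprk1, and the processing enzyme genes Pcsk1, Pcsk2 and Cpe had 0 UMIs in members and reference cells. Of the LIM cofactor list, Lmo4 (-0.73) did not meet the rule for lower, and Ldb1 (-0.14), Tcf3 (-0.03), Tcf12 (0.02) and Gata3 (0.15) were near 0. The partner genes Lmo3, Ldb2, Tal1 and Gata2 had 0 UMIs.

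**Figure D5:**
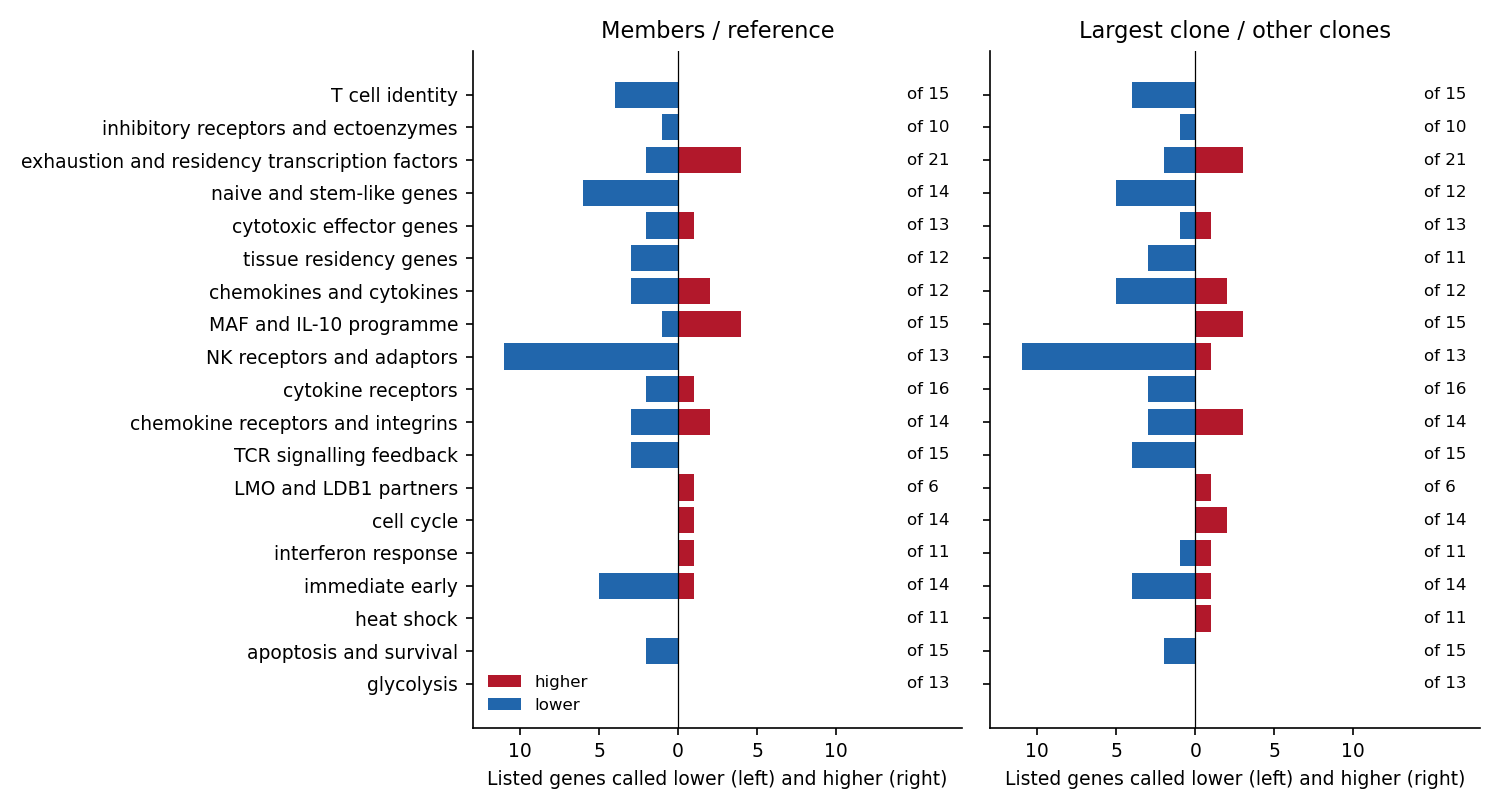
Number of genes of each list called lower (blue, left of 0) or higher (red, right of 0), for members over reference cells and for the members' clone over Pdcd1-positive cells of other clones, with the number of measured genes at the right. Of 13 NK receptor and adaptor genes 11 are lower in both panels.

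The clone can be examined without the rule, since its cells are chosen by receptor alone. Its 325 cells were compared with 2151 Pdcd1-positive cells of other clones, a comparison chosen after the data had been seen. Cells of 1 clone are not replicates, and the receptor of the clone was picked because members carried it. Of 9178 genes, 2.95% were higher and 7.05% lower in the clone. Prss2 had a log2 ratio of 7.43 (6.97 to 7.92), Coch 2.99, Penk 2.66 and Lmo1 2.24. Ppic had 3.90, Fam84a 3.57, Ttn 3.19, Ier3 2.52, Epha3 2.38 and Lim2 1.96. Each of these 6 ratios was larger than the one between members and reference cells. That comparison had 94 cells of the clone in the reference and 52 members of other clones, so this is partly set by the classes. Il10 was 24.1 and 3.76 CPM (2.68), and Maf was 59.2 and 14.9 CPM (1.99). Tnfsf4 was not higher in the clone (-0.55).

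NK receptor genes were further apart between the clone and other clones. Klrd1 was 64.3 CPM in the clone and 656 in Pdcd1-positive cells of other clones, a log2 ratio of -3.35 (-3.67 to -3.05). Klre1 was 16.8 and 372 CPM (-4.47). Tyrobp had 0 UMIs in the clone and 497 in the other cells, at least 23.0-fold lower, and Fcer1g had 1 UMI, a log2 ratio of -6.84 (-12.15 to -4.36). Of the 13 genes 11 were lower and Klra3 was higher (0.60). The median was -3.35, or -2.96 with genes at 0 set to their bound.

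Other genes were also lower or higher in the clone. Tcf7 (-3.84) and Il7r (-4.38) were lower. Xcl1, a chemokine gene, was 16.8 and 163 CPM (-3.28), and Tnf was lower (-2.64). Cd8b1 was 280 and 768 CPM (-1.46). Trbc1 had 0 UMIs in the clone and 2453 in the other cells, at least 114-fold lower; as background, TRBJ2 segments are joined to Trbc2. Ikzf2, which encodes Helios, was 260 and 102 CPM (1.35), and Itgax (2.43), Mx1 (1.42) and Cx3cr1 (1.40) were higher. Eomes (0.29), Tox (0.19) and Cxcr6 (-0.13) were within 1.5-fold. The ratio of Pdcd1 (-0.44) is set partly by the choice of the other cells, which all had a UMI of it, beside 272 of the clone's 325.

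Few genes met the 1.5-fold rule between members and the other cells of the clone, whose median depths were 3944 and 3370 UMIs. Of 3600 genes, 1.33% were higher and 2.58% lower in the 209 members than in the other 116 cells. Ppic was 92.6 and 93.3 CPM, Lim2 268 and 289 CPM, and Ier3 348 and 280 CPM (log2 ratio 0.31). The log2 ratio was 0.49 for Epha3, 0.53 for Maf and 0.25 for Klrd1, and none of the 6 genes counted as higher or lower. Epha3 was present in 37.8% and 26.7% of cells and Maf in 20.6% and 12.1%, members first. Thinned to 2000 UMIs, these shares were 24.3% and 18.6% for Epha3 and 8.91% and 10.8% for Maf. Areg was higher in members of the clone, by 1.44. The set B genes, which chose the members, had 3.92 for Prss2, 2.63 for Coch and 0.76 for Lmo1, and Penk had 65 and 0 UMIs.

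The 52 members of other clones had some of the clone's differences and lacked others. They were set beside Pdcd1-positive cells of other clones that were not members, where 2.44% of 8967 genes were higher and 3.03% lower. A Pdcd1 UMI was present in 37 of the 52 members and, by choice, in all the compared cells. The part of this mismatch in the ratios was not tested. Klrd1 was 704 and 651 CPM (log2 ratio 0.11) and Cd8b1 993 and 762 CPM (0.38), neither counted as different. Klrk1 (0.03) and Klre1 (-0.26) did not count either. Of the 13 NK receptor and adaptor genes 0 were higher and 8 lower all the same, with a median of -2.29, or -0.89 with genes at 0 set to their bound. Fcer1g was 17.4 and 85.2 CPM (-2.29), Klrc1 178 and 330 CPM (-0.89), and Tyrobp had 0 UMIs and was at least 4.94-fold lower. The naive and stem-like genes that were higher included Tcf7 (1.41), Il7r (1.16) and Slamf6 (1.16). Ier3 (-0.34), Epha3 (0.08) and Ppic (-0.84, from 1 UMI in these members) were not higher. Lim2 was lower, with -0.89 (-1.90 to -0.05). Maf was 38.3 and 14.6 CPM (1.39, 0.35 to 2.27), so Maf was higher in both. Tnfsf4 was 66.2 and 4.67 CPM (3.82, 2.97 to 4.63), and they held 19 of the 28 UMIs of Tnfsf4 in members. Genes chosen after their values were seen included Tnfrsf4, the gene of the OX40 receptor, the actin-capping gene Capg (2.84), the chemokine genes Cxcl10 (2.57) and Xcl1 (840 and 142 CPM, 2.56) and Nrn1 (2.13). Xcl1 had a UMI in 19.2% of these members, so its level came from a minority of them. None of the genes in this comparison was checked without cells of 2 TRB chains or high depth.

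Members were also described beside the 1219 cells that set A marks and the 119 that set C marks in this liver, of which 1079 and 113 were among the reference cells. Of 8367 genes, 2.74% were higher and 7.05% lower in members than in set A cells. Ppic (log2 ratio 3.46), S100a4 (2.69), Ier3 (2.54), Cx3cr1 (2.81) and Maf (2.25) were higher in members. Gzmc had 1 UMI in members and 91 in set A cells (-4.57, -9.89 to -2.06), and Klre1 (-2.11), Itga1 (-2.90) and Cd200r1 (-1.89) were lower. Of 5323 genes, 4.02% were higher and 8.23% lower in members than in set C cells. Maf (2.96), Epha3 (2.30), Ppic (2.45) and Gadd45b (2.28) were higher. Cd74, the invariant chain of antigen presentation, was 6.10 CPM in members and 161 in set C cells (-4.73), and the costimulatory receptor gene Tnfrsf9 was 157 and 572 CPM (-1.86). Xcl1 was higher in members (2.85) with all cells and at -0.49 without cells of 2 TRB chains or of more than 2 times the median UMIs. Set A cells belonged to 82 clones with 4 cells in the members' clone, and set C cells to 22 clones with 0.

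The same clone was present in the spleen of the pooled EomesTG mice. Of the spleen cells 15 carried its TRB, and it was the 1 clone of the 15 most numerous liver clones with spleen cells. No barcode was shared between its spleen and liver cells. In wild-type mice 0 of 4953 spleen cells and 0 of 2820 liver cells with a TRB carried it, which allows shares of up to 0.0606% and 0.106%. Members were chosen in the liver library alone, so set B in these spleen cells is a separate measurement, although in the same pooled mice. A set B UMI was present in 10 of the 15 (66.7%, 38.4 to 88.2), in 19 of 153 other Pdcd1-positive spleen cells (12.4%) and in 137 of all 5711 other spleen cells (2.40%). Their median depth was 3606 UMIs and that of the other Pdcd1-positive cells 4686.

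In those 15 spleen cells Prss2 was 291 CPM, present in 7 cells, beside 1.10 CPM and 1 of 153 in other Pdcd1-positive spleen cells. Coch was 146 and 2.20 CPM, present in 5 cells of the clone. Lim2 was 164 and 2.20 CPM, present in 6 cells, and S100a4 was 583 and 40.7 CPM. Penk had 36 UMIs, of which 29 were in 1 cell, and was 656 CPM with that cell and 139 CPM without it, beside 23.1 CPM. Maf was 72.8 and 18.7 CPM, Klrd1 72.8 and 229 CPM and Cd8b1 291 and 927 CPM. Lmo1 was at 0 in the clone and 13.2 CPM in the others. Pdcd1 was 874 and 278 CPM and Tox 601 and 168 CPM. Prss2 in the clone was lower in the spleen than in the liver, 291 beside 701 CPM (log2 liver over spleen 1.27, 0.56 to 2.08). The clone was picked through its liver members, so its liver level of Prss2 is set partly by the rule. The spleen level came from 16 UMIs, and the share of spleen cells with Prss2 was 46.7% (21.3 to 73.4), beside 70.2% in the liver. Cxcr6 was 164 CPM in the clone's spleen cells and 453 CPM in its liver cells. This comparison of organs was chosen after the data had been seen. Heat shock and immediate early genes moved with the organ. Of 11 heat shock genes 10 were higher in the clone's liver cells, with a median log2 ratio of 2.52, and of 11 immediate early genes 6 were higher, beside 3.15% higher and 4.84% lower of 3718 genes. Dnajb1 was 2092 CPM in the liver and 91.0 in the spleen, and Fos was 511 and 18.2 CPM, the latter from 1 UMI. The part of these genes in the organ differences was not tested. Both organs came from the same pooled mice and 1 library each, so organ and library cannot be told apart.

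The rule itself found few cells in the other libraries. It was met by 39 cells of EomesTG spleen (0.681%), 22 of wild-type spleen (0.412%) and 12 of wild-type liver (0.381%), beside 6.83% in EomesTG liver. Of the 39 cells of EomesTG spleen, 35 had a TRB, in 28 clones, and the most numerous was the members' clone with 8. Of the 12 in wild-type liver, 11 had a TRB, in 7 clones, the most numerous with 5. The libraries held 3150 to 5726 kept cells and 19137483 to 28760172 UMIs, and each pair of libraries shared 23 to 57 cell barcodes.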

How the data were processed

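Gene UMI counts per cell and T cell receptor contig tables (UMI and read counts per contig) were used as the authors deposited them; Cell Ranger and mm10 are named in the submitters' processing notes, and software 3.1.0 with format version 2 per the file headers. Each library was 1 sample. The cell filter was 500 UMIs or more, 300 genes or more and mitochondrial UMIs below 10%. No doublet caller was run; an alternative left out cells with 2 TRB chains or more than 2 times the median UMIs. Levels are summed UMIs per 1000000, with exact conditional binomial, Poisson and Clopper-Pearson 95% intervals (scipy 1.17.1, numpy 2.4.6, pandas 2.3.3, Python 3.11.15, matplotlib 3.10.9), checked on simulated counts. PCR and free RNA are not separated. A clone shares TRBV and junction bases of the productive TRB with most UMIs. Named genes were, beyond genes always described, the 15 higher and 12 lower genes whose interval lay farthest from 0 (8 each way for set A and C cells), and up to 6 called genes a list; other genes were named after their values were seen. Members and lists were chosen with earlier results of these data known. Gene positions are from GENCODE M21, GRCm38.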

Additional observations from a re-analysis of the deposited data

How the results depend on the processing

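With 1 library in each group there was no test and no replicate to leave out. No paired analysis was possible because each group was 1 library and the values come from no test. The share of members was 5.31% with at least 3 UMIs of set B and 4.80% with cells thinned before the rule. The share of members in the clone was 88.6% with at least 3 UMIs, 59.3% with the clone defined by TRB and TRA and 34.9% by the authors' clonotypes. For members beside reference cells, 4.02% of genes were higher with all other cells as reference, 1.39% were higher among genes with at least 200 UMIs, and 3.16% were lower without the members' clone. Beside set A cells, 1.46% were higher at 200 UMIs and 4.56% lower without the most numerous clone of either side; the clone comparison gave 1.95% higher at 200 UMIs. Xcl1 beside set C cells went to -0.49 without cells of 2 TRB chains or high depth. With each clone weighted equally, log2 ratios turned for Fam84a (-1.37), Ppic (-0.016), Upk1a (-1.79), Areg (-0.84), Il10 (-1.62), S100a4 (-0.13) and Klre1 (0.11). Of the other single genes checked in this way, 14 moved without turning and 5 stayed the same. Without the clone Areg (0.33), Klri2 (-1.87), Klrd1 (-0.38) and Gcsam (-1.56) no longer met the rule, while Maf had 1.33. Of all single genes checked without the clone, 13 moved and 11 stayed the same. The cause was not tested. Comparisons within and outside the clone were chosen after seeing the data. Counts of 1 to 5 UMIs limit the genes named as lower.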

Other observations

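Prss2 was read in few cells of the other libraries. In wild-type spleen 18 cells had a UMI, in wild-type liver 6 and in EomesTG spleen 30, beside 296 in EomesTG liver. The 16 wild-type spleen cells with a TRB belonged to 16 clones, and a single cell there had up to 10 UMIs. In EomesTG spleen the 28 with a TRB belonged to 22 clones, and in EomesTG liver 245 belonged to 11 clones.

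Receptor contigs without a V segment, which are not productive, were read in 122 of the 325 cells of the members' clone (37.5%, 32.3 to 43.1), and all 122 held TRBJ2-7. In other clones 1500 of 3541 cells had such a contig (42.4%), with TRBJ2-7 in 390 cells. Within the clone the share was 39.0% (32.7 to 45.7) in the 228 cells with Prss2 and 34.0% (24.7 to 44.3) in the 97 without, which overlap. Since all 122 contigs held TRBJ2-7, these shares cannot tell a relation to Prss2 from how often the contig was read. In other clones 10 of 17 cells with Prss2 had such a contig (58.8%), beside 1490 of 3524 without Prss2 (42.3%). With TRBJ2-7 it was 6 of the 17 (35.3%) beside 384 of the 3524 (10.9%). The 17 cells were of 10 clones, and a relation to Prss2 was not tested.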
